A study of Mus musculus with 8 samples.

Results

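The zones described here are stretches of the mouse genome in which replication initiation sites lay close together in wild type (WT) CH12 B lymphoma cells. The autosomes of the mm9 assembly were divided into fixed 100 kb windows counted from the first base of each chromosome, and a window was called dense when it held the midpoints of 6 or more initiation sites (ISs) of the WT list. This rule selected 374 of 24731 autosomal windows, or 1.51%. Reference sequence was present in 24017 of all windows. The dense windows held 2497 of the 25828 WT ISs, or 9.67%. Their members are all sites of the merged site tables with a midpoint inside a dense window, which were 2712 of 39116 sites in the table of Rif1KO and WT cells and 4145 of 129937 sites in the table of the hairpin-expressing cells.

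Initiation sites were mapped by sequencing of short nascent strands (SNS-seq), the RNA-primed DNA pieces that form where new strands start. All cells were CH12, a mouse B cell lymphoma line, grown in complete RPMI under IL4, CD40 and TGF beta stimulation, and 8 libraries formed 4 groups of 2: WT cells, Rif1KO cells that lack the RIF1 protein, and Rif1KO cells that carried an shRNA against LacZ (shLacZ, the hairpin control) or against Mcm6 (shMcm6). Both hairpin groups therefore lacked RIF1, hairpins were delivered by lentivirus with puromycin selection, and the RIF1-deficient cells were clonal derivatives of the parental line. The merged tables gave 1 pooled density per condition, in reads per 1000000 reads in sites (RPM), so neither contrast had a replicate error and no test was made. Intervals of medians and of shares of sites or windows below cover the sampling of sites or windows, those of read shares and the standard errors of single sites and windows cover read counting, and none covers the spread between libraries.

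Replication origins are licensed when the origin recognition complex, CDC6 and CDT1 load the ring-shaped MCM helicase, of which MCM6 is a subunit, onto DNA before S phase. Far more origins are licensed than fire, and in mammals firing is spread over broad initiation zones in which any of several sites may be used in a given cell. Such zones are known to lie preferentially in gene-rich, early-replicating chromatin. RIF1 is known as a regulator of replication timing that binds the phosphatase PP1.

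Because the windows were chosen by the WT calls, the WT values and the Rif1KO to WT ratios of these zones are given as a description and support nothing about RIF1. The hairpin contrast used no library that entered the rule. Site reads totalled 3350255 in WT, 3724571 in Rif1KO, 21071351 in shLacZ and 23602750 in shMcm6 cells, so the hairpin tables were the deeper ones. The pooled reads of a dense window ranged from 358 to 6735 in WT cells with a median of 723.5, and from 365 to 17307 in shLacZ cells with a median of 2362.5. The files hold no RNA or protein measure, so the knockdown of Mcm6 and the loss of Rif1 were not checked here.

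Sequences at the centre of 5 strong sites are shown first, to make visible what the densest windows contain. Each is the 200 bases around the midpoint of the densest WT site that touched no annotated exon, for 5 of the windows with the most WT ISs, read on the plus strand from the NCBIM37 (mm9) reference and written 5′ to 3′. Capitals mark a G-quadruplex motif, defined as 4 runs of at least 3 G separated by 1 to 7 bases on either strand.
chr9:3026837-3027036, in an intron of the predicted gene Gm10717: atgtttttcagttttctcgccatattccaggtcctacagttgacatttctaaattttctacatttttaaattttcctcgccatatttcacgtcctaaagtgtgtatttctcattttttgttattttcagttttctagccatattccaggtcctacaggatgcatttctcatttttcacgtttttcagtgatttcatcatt
chr5:14973164-14973363, intergenic, 4963 bp from the TSS of Gm10354: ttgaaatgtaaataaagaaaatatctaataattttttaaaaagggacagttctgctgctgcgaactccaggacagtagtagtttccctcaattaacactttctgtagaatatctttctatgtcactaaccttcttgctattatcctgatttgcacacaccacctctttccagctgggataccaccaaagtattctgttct
chr7:51692187-51692386, in an intron, 5227 bp from the TSS of Lrrc4b: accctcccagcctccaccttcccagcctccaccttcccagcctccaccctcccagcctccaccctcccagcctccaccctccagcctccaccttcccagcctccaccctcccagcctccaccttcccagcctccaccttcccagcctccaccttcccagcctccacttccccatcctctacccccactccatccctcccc
chr11:3001695-3001894, intergenic, 84811 bp from the TSS of Sfi1: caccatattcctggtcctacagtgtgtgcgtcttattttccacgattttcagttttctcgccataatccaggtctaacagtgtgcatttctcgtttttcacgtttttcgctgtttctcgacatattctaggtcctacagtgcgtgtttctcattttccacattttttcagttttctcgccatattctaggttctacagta
chr10:80919846-80920045, intergenic, 15418 bp from the TSS of Celf5: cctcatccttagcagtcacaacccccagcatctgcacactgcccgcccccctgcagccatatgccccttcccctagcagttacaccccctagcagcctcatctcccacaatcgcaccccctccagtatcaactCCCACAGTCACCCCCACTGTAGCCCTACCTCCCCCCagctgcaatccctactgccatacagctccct

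These 5 sequences were of different kinds. The chromosome 9 and chromosome 11 sequences came from the first sequenced 100 kb of their chromosomes, which begin at base 3000001, and shared a run of 24 identical bases, tttttcagttttctcgccatattc, whereas no other pair shared a run longer than 9 bases. The chromosome 7 sequence near Lrrc4b was a tandem repeat in which the 10-base word cagcctccac occurred 11 times. GC content ran from 32.5% on chromosome 9 to 68.5% near Lrrc4b, and only the chromosome 10 sequence held the motif, over 36 of its 200 bases. The site on chromosome 11 was the densest of the 5, with 375 RPM in WT, 365 RPM in Rif1KO, 64.3 RPM in shLacZ and 67.9 RPM in shMcm6 cells. The chromosome 10 site had 118 RPM in WT and 88.3 RPM in Rif1KO cells, and 27.9 RPM in shLacZ and 22.0 RPM in shMcm6 cells. The site near Lrrc4b had 94.9 RPM in WT and 94.5 RPM in Rif1KO cells, and 32.6 RPM in shLacZ and 27.0 RPM in shMcm6 cells. The chromosome 9 site, at 90.4 RPM in WT and 80.3 RPM in Rif1KO cells, overlapped no site of the hairpin table.

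Most dense windows sat just past the threshold. Exactly 6 WT ISs were found in 230 windows, 7 in 82, 8 in 37 and 9 or more in 25, up to a maximum of 13, while 549 windows fell just short with 5. The 4 windows with exactly 6 ISs and the largest summed WT density held 331 to 375 RPM, and lay on chromosomes 5, 7 and 14. Among them were the windows of Myst4, a histone acetyltransferase gene, and of Mark4, a microtubule-affinity kinase gene. The 4 corresponding windows with exactly 5 ISs, which included that of the sodium channel gene Scn8a, held 326 to 514 RPM. These strongest windows on the 2 sides of the threshold therefore overlapped in summed density, and the rule used site number alone. Single sites had a median WT density of 4.68 on the log2 RPM scale in windows with 5 ISs and 4.73 in windows with 6.

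**Figure D1:**
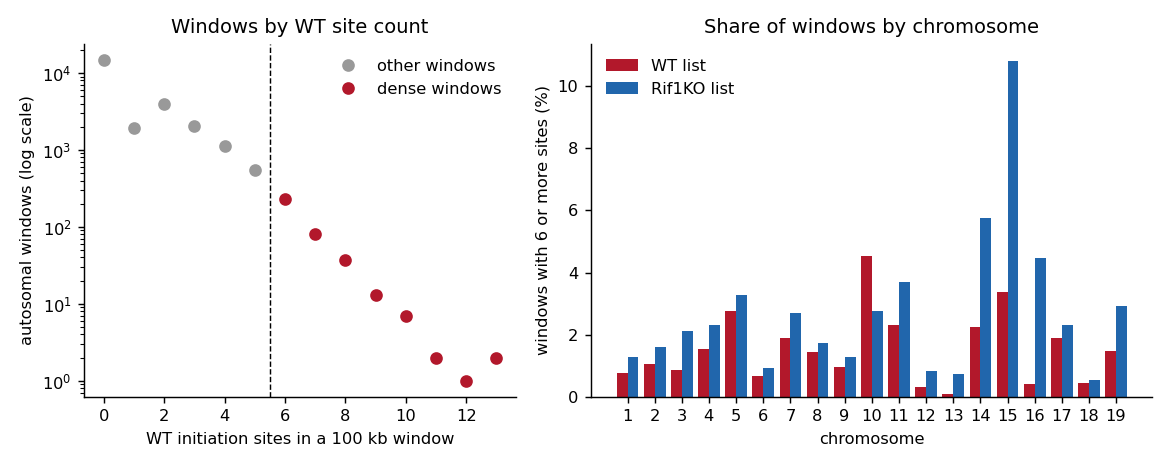
Left, number of autosomal 100 kb windows (log scale) against the number of WT initiation sites in the window, windows without reference sequence included; the dashed line is the threshold and the 374 dense windows are in red. Right, percentage of each autosome's windows with 6 or more sites in the WT list (red) and in the Rif1KO list (blue); chromosome 10 has the highest WT share, 4.54%, and chromosome 15 the highest Rif1KO share, 10.8%.

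The zones were unevenly spread over the chromosomes. Chromosome 10 held 59 dense windows, 4.54% of its windows, followed by chromosome 5 with 42 (2.75%), chromosome 15 with 35 (3.38%) and chromosome 7 with 29 (1.90%), whereas chromosomes 12, 16 and 18 had 4 each and chromosome 13 had 1. In the Rif1KO list the order differed. All autosomes together then had 641 windows with 6 or more sites against 374 in the WT list. The Rif1KO list was also longer, with 33465 autosomal sites against 25725 in the WT list, so the threshold was easier to pass. Chromosome 10 had 36 against 59, chromosome 15 had 112 against 35, chromosome 14 had 72 against 28, chromosome 16 had 44 against 4 and chromosome 3 had 34 against 14. Sites outside dense windows were shifted most on chromosomes 10, 15 and 16, with a median log2 ratio of Rif1KO to WT of -0.33 on chromosome 10, 0.17 on chromosome 15 and 0.33 on chromosome 16, against 0.04 on chromosome 14 and 0.05 on chromosome 3, and whether DNA copy number differs between the lines was not tested. Values of this contrast are therefore also given without chromosomes 10, 15 and 16, which carried 98 of the 374 windows.

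Dense windows were more GC-rich and more gene-rich than the rest of the genome. Their median GC content was 47.1% against 41.4% in the other 23643 windows with sequence, and against 45.1% in the 1673 windows with 4 or 5 WT ISs. They held 1.93 protein-coding transcription start sites (TSSs) on average against 0.875 in the other windows and 1.41 in windows with 4 or 5 ISs. Still, 104 of the 374, or 27.8%, held no protein-coding TSS, against 56.8% of the other windows. The GC content of single dense windows ran from 36.4% to 56.5%, so AT-rich zones were among them. These TSS-free zones had a median GC content of 44.6%, and the 51 zones with 5 or more TSSs one of 50.3%.

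Members showed the same bias site by site. In the table of Rif1KO and WT cells, 10.8% of members (292 of 2712 sites, with a 95% interval by Wilson's method from 9.66 to 11.99%) were found at most 1 kb from a protein-coding TSS, against 6.01% of other autosomal sites, and 9.02% of sites in windows with 5 WT ISs. In the hairpin table the share was 10.3% of members (429 of 4145, 9.46 to 11.3%) against 4.23% of other sites. Introns held 35.9% and 35.6% of members in the 2 tables, exons away from promoters 3.24% and 4.10%, and intergenic sequence 50.1% and 49.99%. Promoter-proximal members had a median GC content of 60.0% in the first table, intronic members 51.5% and intergenic members 49.6%. The median GC content over all members was 51.3% (50.9 to 51.8%) against 46.6% for other sites in that table, and 50.3% (50.1 to 50.6%) against 44.3% in the hairpin table.

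The G-quadruplex motif, in contrast, did not set members of the first table apart. Within 500 bp around the midpoint it was found in 73.2% of members (71.5 to 74.8%) and in 74.4% of other autosomal sites (74.0 to 74.9%). In the hairpin table the shares were 54.2% (52.7 to 55.7%) and 50.3% (49.98 to 50.54%). Both tables stood far above the genome, in which 8.35% of 478711 sampled 500 bp tiles of the autosomes held the motif, and above the tiles of the dense windows themselves, in which it was found in 14.4%. The ratio of observed to expected CpG was 0.19 at the median member and 0.16 at the median other site of the first table. A match is only a run of letters and does not show that a quadruplex forms.

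Within a dense window the sites were packed more closely than in the next class down. Neighbouring members of the first table were 9604.5 bp apart at the median, with quartiles of 5302.25 and 16582.5 bp, against 12906 bp in windows with 4 or 5 WT ISs, a difference that the rule builds in. In the hairpin table the spacings were 5773 bp and 6435 bp. No single site dominated most zones, since the densest site carried a median of 23.6% of the WT density of its window, with a range from 12.4% to 53.7%, and 18.04% of the shLacZ density.

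The next comparison was whether windows that were dense in WT cells were also dense in the other lists, which come from other libraries. Of the 374 windows, 251 held 6 or more Rif1KO sites (67.1%, Wilson 95% interval 62.2 to 71.7%), 349 held 6 or more shLacZ sites (93.3%, 90.3 to 95.4%) and 346 held 6 or more shMcm6 sites (92.5%, 89.4 to 94.8%). Over all autosomal windows these lists had 6 or more sites in 2.59%, 29.6% and 36.9% of windows, so the threshold was far easier to pass in the deeper hairpin lists. In 238 windows all 4 lists reached 6 sites. The site number per dense window ran from 1 to 16 with a median of 6 in Rif1KO, from 1 to 21 with a median of 9 in shLacZ and from 3 to 26 with a median of 10 in shMcm6 cells.

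**Figure D2:**
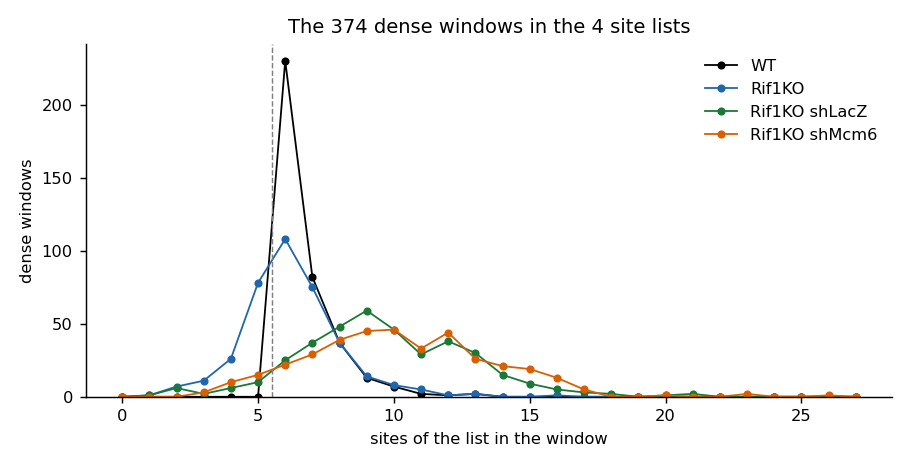
Number of the 374 dense windows (y axis) that hold a given number of sites (x axis) in the WT, Rif1KO, Rif1KO shLacZ and Rif1KO shMcm6 lists; the dashed line is the threshold of the rule, which the WT list passes by construction. The Rif1KO curve has its median at 6 sites, and the shLacZ and shMcm6 curves at 9 and 10.

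Individual WT sites recurred more often inside dense windows than outside. Of the 2497 WT ISs in dense windows, 84.4% overlapped a Rif1KO site, 86.9% an shLacZ site and 84.7% an shMcm6 site, against 77.9%, 77.3% and 76.3% of the 23228 WT ISs elsewhere on the autosomes. All 3 other lists held 71.2% of the ISs in dense windows (69.4 to 72.9%) and 58.0% of the others (57.4 to 58.6%). Only 2.84% of ISs in dense windows had no counterpart in any other list, against 5.95% elsewhere. The members were also the denser sites, with a median WT density of 4.79 on the log2 RPM scale against 4.43, and densely read sites are called more readily. Dense windows held more sites to overlap, with means of 6.22 against 1.32 per other window in Rif1KO and 9.67 against 4.03 in shLacZ cells. Each list also kept only peaks that lie in clusters with another peak. The parts of density, site number and this filter in the recurrence were not tested.

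In the hairpin contrast, which asks what MCM6 depletion does to these sites in cells without RIF1, members were slightly lower in shMcm6 than in shLacZ cells. The median member density was 3.18 in shLacZ and 3.10 in shMcm6 cells on the log2 RPM scale, and the median of the per-site log2 fold changes was -0.08 (order-statistic 95% interval -0.10 to -0.08, n = 4145 sites). Other autosomal sites had a median of -0.01 (n = 123167), which leaves a difference of -0.08 (-0.09 to -0.07). Compared among sites of like GC content, in 5 classes of equal size, the difference was -0.04. Members were below 0 in 62.6% of cases and other sites in 51.1%.

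The shift was small at the median, and few members moved by over 1.5-fold. Among the 129937 sites of the table, 4.80% were higher and 1.51% lower in shMcm6 cells by over 1.5-fold. Among members the shares were 3.47% higher (144 sites, Wilson 95% interval 2.96 to 4.08%) and 2.85% lower (118 sites, 2.38 to 3.40%). Members thus included fewer higher and more lower sites than the table as a whole, although both shares were a few percent. Limited to sites called in both conditions, members had 1.35% higher and 1.66% lower against 1.3% (1108 of 85457) and 0.751% (642) of all such sites, so the higher shares were then close. At a log2 fold change of 0.32 members had 9.89% higher and 17.2% lower against 14.4% and 11.5%. The share of all site reads that fell in dense windows was 4.37% in shLacZ (exact 95% interval 4.36 to 4.38%) and 4.16% in shMcm6 cells (4.15 to 4.17%). On each of the 19 autosomes the median of members was below that of the other sites on the same chromosome, by 0.01 on chromosome 9 at the least and 0.19 on chromosome 16 at the most.

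Hairpin-table sites that coincided with a WT IS were lower than the rest, inside dense windows as well as outside. The 2198 members that overlapped a WT IS had a median log2 fold change of -0.14 (-0.15 to -0.13), and the 1947 members that did not had one of -0.02 (-0.03 to 0.00). Outside dense windows the same split gave -0.10 (-0.10 to -0.10) for 19027 sites and 0.01 (0.01 to 0.02) for 104140 sites. Sites overlapping a WT IS made up 53.0% of members but 15.4% of other sites, a difference that the rule builds in. They were also denser, at a median of 3.56 against 2.72 on the log2 RPM scale in shLacZ cells. Higher calls by over 1.5-fold were found for 1.27% of members overlapping a WT IS (28 sites) and 5.96% of the rest (116 sites), whereas lower calls were 3.003% and 2.67%. Outside dense windows the same split gave 0.857% and 5.595% higher and 1.603% and 1.42% lower, against 4.80% higher and 1.51% lower over the table. The smaller share of higher calls among sites overlapping a WT IS was thus found outside dense windows as well.

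The gradient over windows had its steepest part below the threshold. In windows without a WT IS the median log2 fold change of shMcm6 over shLacZ was 0.02, with 3 ISs it was -0.04, with 5 it was -0.07, and with 6, 7, 8 and 9 or more it was -0.08, -0.10, -0.09 and -0.08, whose intervals overlap. The Rif1KO to WT ratio, whose denominator chose the windows, ran from 0.18 in windows without a WT IS to -0.08 with 5 and -0.16 with 9 or more. GC content rose along the same axis from 42.5% to 52.2% in the hairpin table, and the share of promoter-proximal sites from 2.88% to 14.2%.

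**Figure D3:**
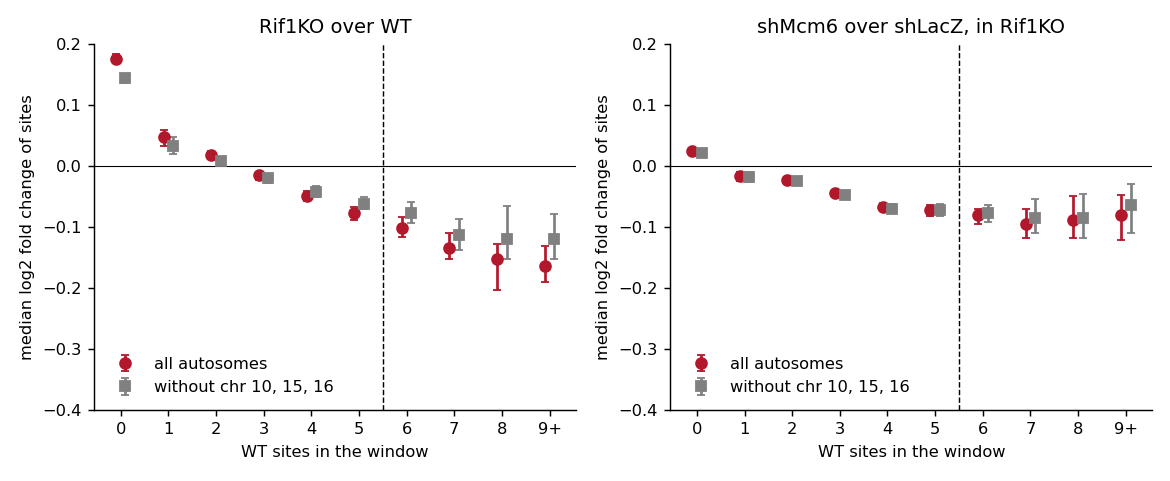
Median log2 fold change of sites (y axis) by the number of WT sites in their 100 kb window (x axis), for Rif1KO over WT (left) and shMcm6 over shLacZ (right); bars are order-statistic 95% intervals, red circles are all autosomes, grey squares leave out chromosomes 10, 15 and 16, and the dashed line is the threshold. On the right the classes from 6 sites up lie between -0.08 and -0.10 in red; the left panel shares its WT libraries with the x axis.

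Every genomic context of the members had a median below 0 in the hairpin contrast. Promoter-proximal members stood at -0.10 (n = 429) against -0.04 for other promoter-proximal sites, exonic members at -0.11 (n = 170) against -0.07, intronic members at -0.10 (n = 1474) against -0.03 and intergenic members at -0.07 (n = 2072) against 0.01. Across the 5 classes of GC content the members ran from 0.05 in the most AT-rich to -0.11 in the most GC-rich, and other sites from 0.08 to -0.08. The spread of members within a window, a pooled SD of 0.30, was larger than their counting error, a root mean square of 0.15, and whether it exceeds replicate error was not tested.

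Summed over whole windows, 284 of the 360 dense windows with at least 6 hairpin-table sites were below 0 in shMcm6 over shLacZ cells, or 78.9%, against 49.5% of 10516 other windows with as many sites. The median window ratio was -0.08 (-0.09 to -0.07) on the log2 scale with an SD of 0.11. By counting error alone, which leaves out the spread between libraries, 169 of the 360 (46.9%) were more than 2 standard errors below 0 and 28 (7.78%) more than 2 above. Among all 10876 windows with as many sites, dense ones included, 19.9% were below and 21.0% above by the same measure. Zones without a protein-coding TSS had a median ratio of -0.06 (-0.07 to -0.02, n = 97) and zones with TSSs one of -0.09 (-0.11 to -0.08, n = 263).

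The lowest window ratio was on chromosome 10, at bases 79700001 to 79800000, among Apc2, a homologue of the APC tumour suppressor, Rps15, a protein of the small ribosomal subunit, Dazap1, an RNA-binding protein, Pcsk4, a proprotein convertase, Reep6 and 2310011J03Rik. Its summed density was 64.4 RPM in shLacZ and 49.1 RPM in shMcm6 cells, a log2 ratio of -0.39 with a counting standard error of 0.06, and 5 of its 6 sites were below 0. Next came the window at 26000001 to 26100000 of chromosome 17, with Pigq, which acts in GPI anchor synthesis, Rab40c, Wfikkn1, a protease-inhibitor protein, Nhlrc4, Fam195a and 0610011F06Rik. It had 81.1 RPM in shLacZ and 62.2 RPM in shMcm6 cells, a log2 ratio of -0.38. It also held the lowest member no less dense than the median site of the table, an intronic site at 26069162 to 26069961 with 331 reads in shLacZ and 198 in shMcm6 cells and a log2 fold change of -0.91. The windows of Snx9, a sorting nexin of endocytosis, and Synj2, a phosphoinositide phosphatase, on chromosome 17, and of N4bp2 and Rhoh, the latter a blood-cell small GTPase, on chromosome 5, both had ratios of -0.32.

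At the other end, the window of Tbx5, a heart and forelimb transcription factor gene on chromosome 5 (120200001 to 120300000), had 114 RPM in shLacZ and 138 RPM in shMcm6 cells, a log2 ratio of 0.27 with a counting standard error of 0.04. In that window 13 of 15 sites were above 0, and the list of shMcm6 sites had 15 members there against 7 in shLacZ and 6 in WT cells. The window of Tmem233 and Ccdc60 on the same chromosome had 140 RPM and 168 RPM, again a ratio of 0.27. The window of Nrg3, a neuregulin growth factor gene on chromosome 14, stood at 0.23, and a gene-free window on chromosome 10 (65200001 to 65300000) at 0.21. The single member with the highest fold change among sites no less dense than the median site of the table, intergenic on chromosome 14 at 26149756 to 26150665, had 79 reads in shLacZ and 294 in shMcm6 cells, and overlapped no WT IS. The 4 windows highest in shMcm6 cells held 1, 2, 1 and 0 protein-coding genes, and the 4 lowest held 9, 8, 2 and 2.

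In Rif1KO over WT cells, the contrast that shares its WT libraries with the rule, members had a median log2 fold change of -0.12 (-0.14 to -0.11, n = 2712), and other autosomal sites one of 0.03. Over all its sites 2.27% of sites were higher and 2.70% lower in Rif1KO cells by over 1.5-fold, and the members had 0.369% higher (10 sites) and 7.12% lower (193 sites). Without chromosomes 10, 15 and 16 the member median was -0.09 and the lower share 2.36% (47 of 1990 members), with 1 higher site. The other sites left by this step had a median of 0.01, with 1.28% lower and 1.01% higher. Chromosome 10 alone gave 143 of the 193 lower sites, at a member median of -0.51, against a median of -0.33 for its other sites. Over all sites, too, only 430 of the 1055 lower ones lay off chromosomes 10, 15 and 16. Limited to sites called in both conditions, the difference between members and other sites was -0.09 in place of -0.15. Here the pooled SD within windows, 0.22, matched the root mean square counting error of 0.22.

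The share of all site reads inside dense windows was 8.98% in WT (300951 reads, exact 95% interval 8.95 to 9.01%) and 8.18% in Rif1KO cells (304577 reads, 8.15 to 8.21%), and 8.04% and 7.56% without chromosomes 10, 15 and 16. The 4 lowest window ratios of this contrast were all on chromosome 10. The lowest, -0.76, belonged to the window at 126900001 to 127000000, which holds Lrp1, an endocytic receptor gene, Shmt2, of mitochondrial serine metabolism, Nxph4, Stac3, Ndufa4l2 and R3hdm2, with 280 RPM in WT and 166 RPM in Rif1KO cells. The 4 highest were all on chromosome 15, with 0.42 at the window of Rspo2, a Wnt-pathway agonist gene, from 177 RPM in WT to 237 RPM in Rif1KO cells, and 0.36 at that of Enpp2, which encodes autotaxin. The 4 lowest and 4 highest windows of this contrast thus lay on chromosomes 10 and 15, as the plot of window ratios shows. Not all windows of these chromosomes followed. The chromosome 15 window at 81300001 to 81400000 stood at -0.33, and the chromosome 10 windows starting at 41800001 and 43400001 at -0.02 and -0.03.

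**Figure D4:**
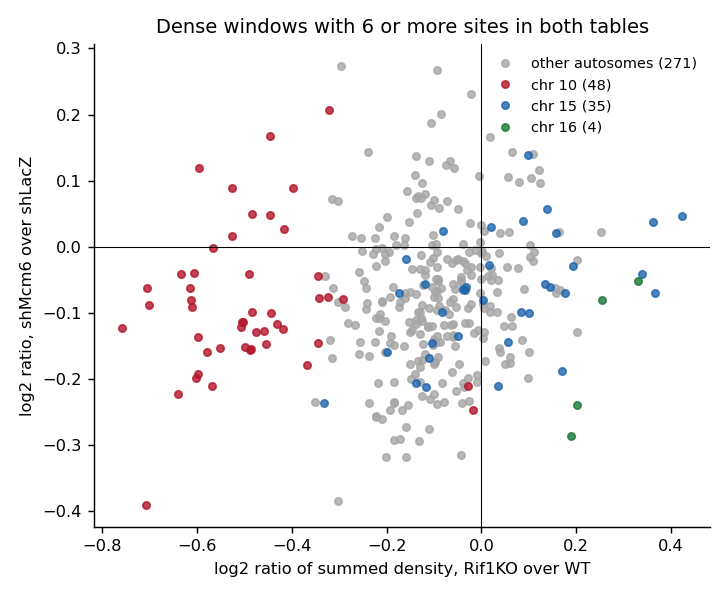
Log2 ratio of summed site density per dense window, Rif1KO over WT (x axis) against shMcm6 over shLacZ (y axis), for the 358 dense windows with at least 6 sites in both tables, coloured by chromosome with the number of windows in the key. Chromosome 10 windows run from -0.76 to -0.02 on the x axis, chromosome 15 windows from -0.33 to 0.42, and chromosome 16 windows lie to the right of 0. Most windows lie below 0 on the y axis.

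Window ratios of the 2 contrasts, which share no library, were weakly related across the 358 windows (Spearman correlation 0.15, and 0.16 over 271 windows without chromosomes 10, 15 and 16). The windows share base composition, and GC content had a correlation of -0.39 with the Rif1KO to WT ratio and of -0.18 with the hairpin ratio. Of the members, 2319 matched 1 to 1 between the tables. Their densities in WT and shLacZ cells had a Spearman correlation of 0.57, and their fold changes in the 2 contrasts one of 0.09. Sites that were denser in WT cells thus tended to be denser in shLacZ cells, while the fold changes of the 2 contrasts were barely correlated. In Rif1KO over WT the spread of members within windows was no larger than counting error. Whether the underlying changes are related therefore cannot be told from this correlation.

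The windows with the most WT ISs included the first sequenced windows of chromosomes 9 and 11 and a window in a Speer4 gene cluster. The first sequenced window of chromosome 9 (3000001 to 3100000) held 13 WT ISs and 13 Rif1KO sites but 6 shLacZ and 7 shMcm6 sites, and its annotated genes, among them Gm17535, Gm10715, Gm10106, Gm10716, Gm10717 and Gm10718, are predicted models without a known role. The first sequenced window of chromosome 11, at Sfi1, a centrosome protein gene, and Drg1, a developmentally regulated GTP-binding protein gene, held 11 WT ISs and 6735 WT reads, or 2.24% of the WT reads of all dense windows, against 2800 reads in the next window. It had 2010 RPM in WT, 1921 RPM in Rif1KO, 821 RPM in shLacZ and 775 RPM in shMcm6 cells. These were the first sequenced windows of 2 of the 19 autosomes, and since only reads with a single best match were kept by the authors, how reads from repeated copies were placed there cannot be told from the tables.

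The window on chromosome 5 at 14900001 to 15000000 also held 13 WT ISs. It belongs to a run of 3 adjacent dense windows over Speer4e and Speer4d, members of a testis-expressed glutamate-rich protein family, with Gm9758 and Gm10354. The 300 kb run had a GC content of 41.5% over its known bases, the lowest of any run of 3 or more windows, and 50000 of its bases are unknown in the reference. Its summed density was 1362 RPM in WT and 1363 RPM in Rif1KO cells, and 844 RPM in shLacZ and 848 RPM in shMcm6 cells. Both contrasts were thus near 0 in this run.

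On chromosome 7, at 51600001 to 51700000, 12 WT ISs lay over Shank1, a postsynaptic scaffold gene, Syt3, a synaptotagmin gene, Lrrc4b and 1700008O03Rik. Summed density there was 632 RPM in WT and 571 RPM in Rif1KO cells, and 281 RPM in shLacZ and 258 RPM in shMcm6 cells.

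Adjacent dense windows formed longer zones in a few places. The 374 windows made 331 runs, of which 299 were single windows, 26 had 2, 2 had 3, 3 had 4 and 1 had 5 windows. The runs of 3 or more are described here because of their length, a choice made after their values were seen. The longest covered bases 80600001 to 81100000 of chromosome 10 with 34 protein-coding genes. These included Eef2, the translation elongation factor 2 gene, Nfic, Celf5, an RNA-binding protein gene, and Gna11 and Gna15, G protein alpha subunits. Also among them were S1pr4, a lymphoid sphingosine-1-phosphate receptor, the Groucho-family genes Tle2, Tle6 and Aes, and the deacetylase Sirt6. The run held 42 WT, 32 Rif1KO, 62 shLacZ and 63 shMcm6 sites. Its summed density was 2417 RPM in WT and 1629 RPM in Rif1KO cells, a log2 ratio of -0.57 on a chromosome whose other sites had a median of -0.33. It was 839 RPM in shLacZ and 766 RPM in shMcm6 cells, a log2 ratio of -0.13 with a counting standard error of 0.02.

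The densest site of that run covered the promoter of Aes, 137 bp from its TSS at 81022376 to 81023670, with 245 RPM in WT and 184 RPM in Rif1KO cells. It carried 42.7% of the WT density of its window. The promoter of Celf5 had the next window's densest site, at 80944661 to 80945293, with 130 RPM in WT and 91.6 RPM in Rif1KO cells. All 10 sites of each of these 2 windows were lower in Rif1KO cells, as were 97.4% of all 417 members on chromosome 10. The other sites of chromosome 10 had a median log2 ratio of -0.33.

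**Figure D5:**
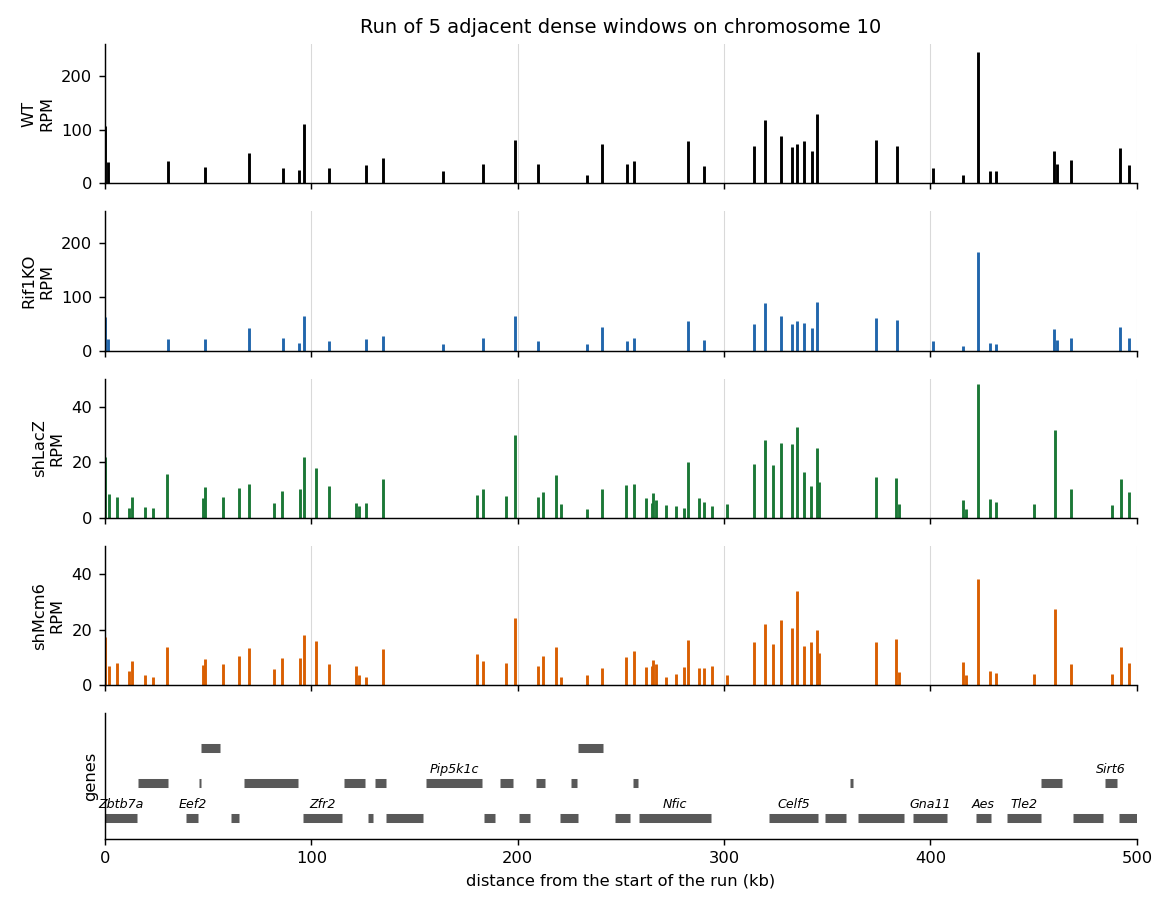
Map of the 500 kb run of 5 adjacent dense windows on chromosome 10. Each vertical line is a site at its distance from the start of the run (x axis, kb) with its density in RPM (y axis, 0 to 260 for WT and Rif1KO and 0 to 50 for shLacZ and shMcm6), thin grey lines are window borders, and grey bars are protein-coding genes with some names given; the tallest line, 245 RPM in WT, is the site at the Aes promoter.

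A second long zone on chromosome 10, 4 windows from 79600001 to 80000000, held 29 WT ISs over 23 protein-coding genes, including Tcf3, which encodes the E2A transcription factors of lymphocytes, Cirbp, a cold-inducible RNA-binding protein gene, Mbd3 and Rps15. Its ratio was -0.59 in Rif1KO over WT and -0.13 in shMcm6 over shLacZ cells. The 4-window zone on chromosome 15 from 78200001 to 78600000 covered Il2rb, the interleukin-2 receptor beta chain, Rac2, a blood-cell small GTPase, and Mfng, a Notch-modifying enzyme. There the density was 1053 RPM in WT and 981 RPM in Rif1KO cells, and 565 RPM in shLacZ and 529 RPM in shMcm6 cells. Another zone of 4 windows, on chromosome 4 over Igsf21 and Arhgef10l, had ratios of -0.07 and -0.11. The 3-window zone of Aifm2, H2afy2 and Col13a1 on chromosome 10 had ratios of -0.42 and -0.11.

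Gene families were looked up by the 5′ end of each protein-coding gene. Of 21281 autosomal gene names, 722 started in a dense window, or 3.39%. Among B cell genes 1 of 24 found in the annotation did, Irf8, a transcription factor of B and myeloid cells, whose window held 6 WT, 6 Rif1KO, 11 shLacZ and 11 shMcm6 sites. Pou2f2, the lymphoid octamer factor Oct-2, came next with 5 WT ISs, and Cd22, Ikzf1 and Spib were among those with 4. None of the 27 origin licensing and firing genes started in a dense window. Their highest count was 4 WT ISs for Cdc6, the licensing factor, while Rif1 had 3 and 13 of the 27 had no WT IS in their window. Of 75 ribosomal protein genes, Rpl28 and Rps15 started in dense windows. Among 358 Zfp zinc finger genes 7 did, and among 1106 olfactory receptor genes 6 did, in 2 groups of neighbours, Olfr741 to Olfr743 and Olfr822 to Olfr824. No replication-dependent histone gene of 67, no Hox gene of 39 and no clustered protocadherin gene of 24 did, although Hox gene windows held 3.69 WT ISs on average against 1.49 over all genes. With lists this small, a count of 0 or 1 does not separate a list from the 3.39% of all genes.

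Sites of a zone were also ordered by their WT density. In windows with at least 3 matched members, the densest WT site had a median log2 fold change of -0.17 (-0.19 to -0.15, n = 369) in shMcm6 over shLacZ cells, the least dense one of -0.13 (-0.15 to -0.10, n = 369), and the sites between them one of -0.13 (-0.15 to -0.12, n = 1573). The last 2 classes were alike in their medians, and the difference of the densest sites from them was not tested.

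Site numbers also differed between dense and other windows. Dense windows had 1.06 times as many sites in the shMcm6 list as in the shLacZ list, against 1.15 times in other autosomal windows, and site number was higher in shMcm6 cells in 177 dense windows, equal in 102 and lower in 95. Members called only in shMcm6 cells were 13.8% and those called only in shLacZ cells 7.86%, against 23.2% and 11.04% of other sites.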

How the data were processed

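SNS-seq reads were trimmed, aligned to mm9 with Bowtie 1.2.3 keeping uniquely placed reads, and turned by the authors into 1 consensus IS list per condition from both replicates, keeping peaks that lie in clusters with another peak. The deposited tables of merged sites hold log2 RPM values, pooled over replicates by the authors, for WT and Rif1KO and for shLacZ and shMcm6 cells. Since all values came out as whole numbers of reads of the table total within 0.01 of a read, read counts per site were recovered from the deposited log2 values and used for counting errors only. Windows, members and lists were chosen with earlier results of these data known.

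Fold changes were differences of log2 RPM without a pseudocount, and sites beyond 1.5-fold were counted over the whole table. Medians carry order-statistic 95% intervals, shares Wilson intervals, and read shares exact binomial intervals. A single window or site carries the counting standard error of its log2 ratio. PCR reads are not independent molecules. Replicates came from separately thawed cells, per the study's methods, but the tables used here do not keep them apart. Named windows were the 8 with most WT ISs, the 4 highest and 4 lowest ratios per contrast among dense windows with at least 6 sites, and the 4 with the largest WT density at exactly 6 and at exactly 5 WT ISs, with all protein-coding genes overlapping them or the 6 nearest to the densest site. Some of these windows, sites and genes are not reported here. The single sites with the lowest and highest hairpin fold change were picked after values were seen, among members no less dense than the table median. Genes came from GENCODE on NCBIM37. Steps were run in Python 3.11.15 with pandas 2.3.3, scipy 1.17.1 and pysam 0.24.0 and tested on simulated reads with known shifts.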

Additional observations from a re-analysis of the deposited data

How the results depend on the processing

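Of 84 alternative values, 28 stayed within the 95% interval of the value given, or within 1.5 times a count, and none of the 38 that were signed differences changed sign. No paired analysis was possible because both replicates of a condition form 1 value in the files used here, so neither a replicate block nor the omission of a replicate could be run, and single libraries were not analysed here. The cause of the moves below was not tested, apart from those that follow from a looser or stricter rule or threshold. With 5, 8 or, in 200 kb windows, 12 WT sites as the minimum, the number of dense windows was 923, 62 and 50. The member minus other difference in Rif1KO over WT was then -0.14, -0.18 and -0.18, the treated minus control read share -1.28, -0.28 and -0.36 percentage points, and for the hairpins -0.41, -0.0499 and -0.0566 points. Promoter shares were 14.3% and 15.4% for the stricter rules in the first table, and 8.96%, 14.0% and 13.9% in the hairpin table. With the grid shifted by 50 kb, read share differences were -0.85 and -0.26 points, 72.3% of dense windows had 6 or more Rif1KO sites, and GC differences were 5.44 and 6.37 points in place of 4.66 and 5.99. Sites called in both conditions gave differences of -0.0917 and -0.0649, read share differences of -0.74 and -0.19 points, higher shares of 0.19% and 1.35%, and lower shares of 3.87% and 1.66%, against 0.425%, 1.3%, 1.29% and 0.751% over all such sites. Without chromosomes 10, 15 and 16 the Rif1KO difference was -0.11, its higher and lower shares 0.0503% and 2.36% against 0.947% and 1.36% over all sites left, and read share differences -0.47 and -0.18 points. Within 5 GC classes the differences were -0.10 and -0.0441. Leaving out sites below the lower quartile of density gave -0.13 in Rif1KO over WT, and 2.50% higher and 2.25% lower for the hairpins, against 2925 and 883 of all 97470 sites left. With log2(RPM + 1) the hairpin shares were 2.17% and 1.33%, against 2.95% and 0.554% over the table. At 2-fold the higher and lower shares were 0% and 0.52% in Rif1KO over WT and 0.53% and 0.0724% for the hairpins, against 0.0971%, 0.189%, 0.969% and 0.0531% over the tables. At a log2 fold change of 0.32 they were 3.98% and 24.5%, and 9.89% and 17.2%, against 12.9%, 11.5%, 14.4% and 11.5%. Within 500 bp, within 2 kb and with TSSs of any gene type, promoter shares were 8.63%, 14.6% and 14.8% in the first table and 7.67%, 14.0% and 14.6% in the second.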
